A study of Heliothis virescens with 2 samples.

Results

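Protein folding and protein degradation were followed here through 27 tags of an HT-SuperSAGE comparison of guts of *Heliothis virescens*, the tobacco budworm, from a Vip3A-resistant strain (Vip-Sel) and a Vip3A-susceptible strain (Vip-Unsel). Both strains were split from 1 field-derived population, Vip-Sel being selected with the toxin and then bred for some generations without it. Larvae fed on artificial diet, and the dissected larvae of both strains had been reared without the toxin in it. Vip3A is an insecticidal protein of *Bacillus thuringiensis* that acts on the larval midgut. HT-SuperSAGE reads a stretch of 26 bp of each transcript, starting at a CATG site, and the count of a tag stands for the abundance of its transcript. Each strain gave 1 library, made from the guts of 25 larvae of the third instar that were combined as 5 RNA preparations of 5 guts each, so no replicate shows how much larvae of a strain differ. In all, 1056080 reads of tags were counted for Vip-Sel and 268172 for Vip-Unsel, so that 1 count in Vip-Unsel weighs as much as 3.94 in Vip-Sel.

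The 27 tags were chosen by their class and name in the study's lists of changed tags: 26 stood in the class of protein folding and recycling, and 1 entered by its protein name, out of 35963 different tags in the libraries together. The lists contain called tags only, so the choice used the counts described below, and the values are given as a description, with no test. A tag was called overexpressed (OE) in Vip-Sel when its fold change (FC), computed on counts scaled to about the size of the smaller library, was at least 2.5, and underexpressed (UE) when the FC did not exceed 0.4, each with a one-sided Audic and Claverie probability under 0.05. By this rule 8 of the 27 tags were OE and 19 were UE. Among the 5237 tags counted in both libraries, as all 27 members were, 8.02% were OE and 30.0% UE, and among all 15467 tags counted at least 2 times the shares were 6.70% and 27.0%. Since a call was a condition for being listed, these shares are given beside the member counts only as background. The 15467 tags include tags absent from 1 library, which no member was. The study's total of 420 OE tags equals that among the 5237 tags. Where an interval follows an FC or ratio, it is the exact 95% interval, which holds counting error alone. Several ratios of summed tags are given without an interval. Amplified reads are not independent molecules.

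Chaperones bind unfolded or partly folded proteins and help them to reach their shape. Hsp90 and Hsc70 are abundant cytosolic chaperones that work by ATP hydrolysis, small heat shock proteins hold unfolding clients without ATP, and chaperonins fold proteins such as actin and tubulin inside a ring. Proteins that are to be removed are marked with ubiquitin through an E1, E2 and E3 enzyme cascade and are then degraded by the 26S proteasome, a proteolytic core with regulatory caps. The cells of a midgut epithelium secrete large amounts of digestive enzymes, and secretory cells rely on such quality control.

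Most of the counts of the members lay in OE tags, and most of the UE tags were rare. The 3 OE chaperones (Tag_7 and Tag_451 of Hsp90 cognate and Tag_80 of heat shock cognate 70) summed to 20045 counts in Vip-Sel (1.90% of its total) versus 1250 in Vip-Unsel (0.466%). The other 4 chaperone tags summed to 16 counts in Vip-Sel versus 39 in Vip-Unsel. Among the 16 degradation tags, 4 were OE, led by the proteasome core subunit of Tag_30, and 12 were UE. Of all called tags counted in both libraries, 78.9% were UE. The 12 UE degradation tags included 7 tags of ubiquitin ligases or their subunits and adaptors and both tags of the proteasome cap.

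**Figure D1:**
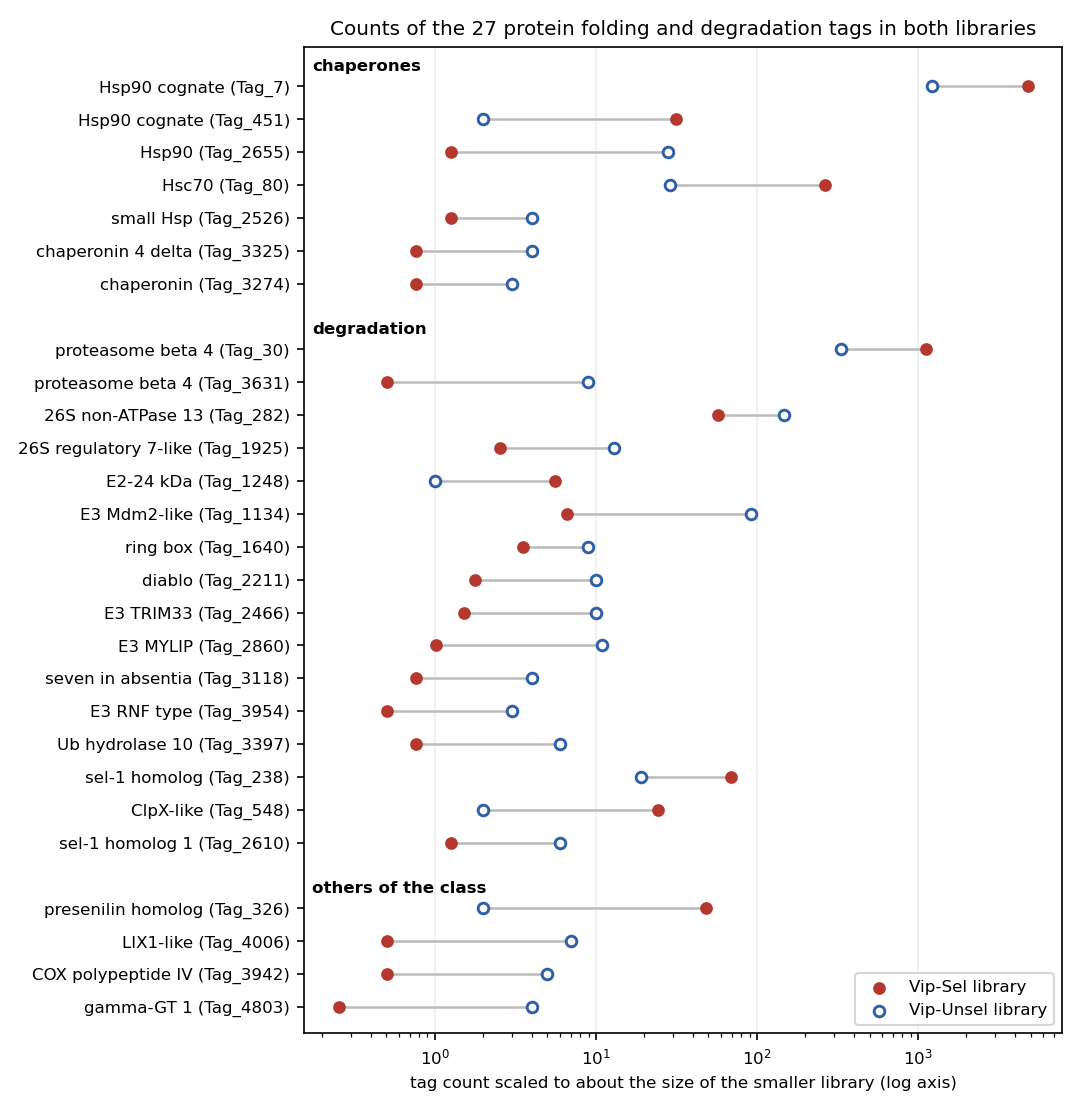
Counts of the 27 tags, scaled to about the size of the smaller library (horizontal log axis), in the Vip-Sel library (filled red points) and the Vip-Unsel library (open blue points), 1 library per strain. In each library Tag_7 of Hsp90 cognate and Tag_30 of the proteasome core lie furthest to the right. For both, the Vip-Sel point lies to the right of the Vip-Unsel point, while 14 of the 19 UE tags rest on at most 20 counts.

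The following tags carried most of the counts, or shared a protein name with a tag that was called the other way. They are written 5′ to 3′ with the CATG site in capitals, as counted in the deposited data.
Tag_7, Hsp90 cognate, OE: CATGctgcagcgcgcgctgggcgtgg
Tag_451, Hsp90 cognate, OE: CATGgagcggctcgcgctctccaacg
Tag_2655, Hsp90, UE: CATGttgtaatggtgtttatgtgatt
Tag_80, heat shock cognate 70, OE: CATGcccggcggtatgcccggcggca
Tag_30, proteasome subunit beta type-4, OE: CATGgcgaccccgctggtgcgcgagg
Tag_3631, proteasome subunit beta type-4, UE: CATGtacgcgccgaggccggtggcaa
Tag_238, sel-1 homolog, OE: CATGcacgagcgagggctcggcctgg
Tag_2610, sel-1 homolog 1, UE: CATGgggttcccggctgatgctggcg
The tags that share a protein name are unlike in sequence. Tag_7 and Tag_451 have the same base at 16 of the 26 positions, CATG included, Tag_30 and Tag_3631 at 11, and Tag_238 and Tag_2610 at 8, so no member of a pair is a reading variant of the other by 1 base. Whether they stem from different genes, different transcripts or different sites of the same transcript was not tested.

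Tag_7, matched by the study to an Hsp90 cognate of *Spodoptera litura*, was the most abundant member and the tag ranked 7 in Vip-Sel and 34 in Vip-Unsel. It had 18875 counts in Vip-Sel (1.79% of its total) versus 1219 in Vip-Unsel (0.455%), with FC 3.93 (3.71 to 4.17). Tag_451, matched to the same protein, had 124 counts in Vip-Sel versus 2 in Vip-Unsel (FC 15.7, 4.27 to 131). The third Hsp90 tag, Tag_2655, matched to Hsp90 of the honey bee, went the other way, with 5 counts in Vip-Sel versus 28 in Vip-Unsel (FC 0.0453, 0.0137 to 0.119). The variant of Tag_2655 that differs in the last base, T26G, had 7 counts in Vip-Sel versus 31 in Vip-Unsel (ratio 0.0573, 0.0213 to 0.133) and was called UE. The last 2 bases of a tag are joined to an adapter end of mixed bases, where the paper names mismatch as possible. Calls of variants in these bases are therefore no separate support for a member. Whether such variants stem from another transcript was not tested. Without Tag_7 the other Hsp90 tags summed to 129 counts in Vip-Sel versus 30 in Vip-Unsel, with a ratio of 1.09 (0.729 to 1.68).

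The count of Tag_7 was accompanied by that of a very similar tag. This neighbour differs by the substitution G12A, with positions counted from the 5′ end of the tag, and was itself not called and therefore carries no protein name here. The differing base is in capitals:
Tag_7: catgctgcagcGcgcgctgggcgtgg
neighbour of Tag_7: catgctgcagcAcgcgctgggcgtgg
The neighbour had 4591 counts in Vip-Sel versus 1295 in Vip-Unsel, with a ratio of 0.9002 (0.846 to 0.958). It was thus slightly more abundant than Tag_7 in Vip-Unsel, while in Vip-Sel Tag_7 exceeded it by far. Of the counts of both tags, Tag_7 took 80.4% (79.9 to 80.9) in Vip-Sel and 48.5% (46.5 to 50.5) in Vip-Unsel. The shares stayed close to these when all tags with the same first 24 bases were summed, 80.5% in Vip-Sel versus 48.1% in Vip-Unsel. The family of Tag_7 then had 22173 counts in Vip-Sel versus 1568 in Vip-Unsel, with a ratio of 3.59, and the family of its neighbour 5372 and 1694 counts in Vip-Sel and Vip-Unsel, a ratio of 0.805 (0.762 to 0.851). Both families together gave a ratio of 2.14 (2.07 to 2.22), under the OE threshold. Over 72 abundant tags (at least 1000 counts, with no larger tag 1 substitution away), the largest neighbour with a difference inside the first 24 bases held a median of 0.485% of the tag's count. For Tag_7 it held 29.3%, and 2 of the 72 tags had a higher share. Whether the neighbour is an allele, a second gene or a strain difference was not tested.

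**Figure D2:**
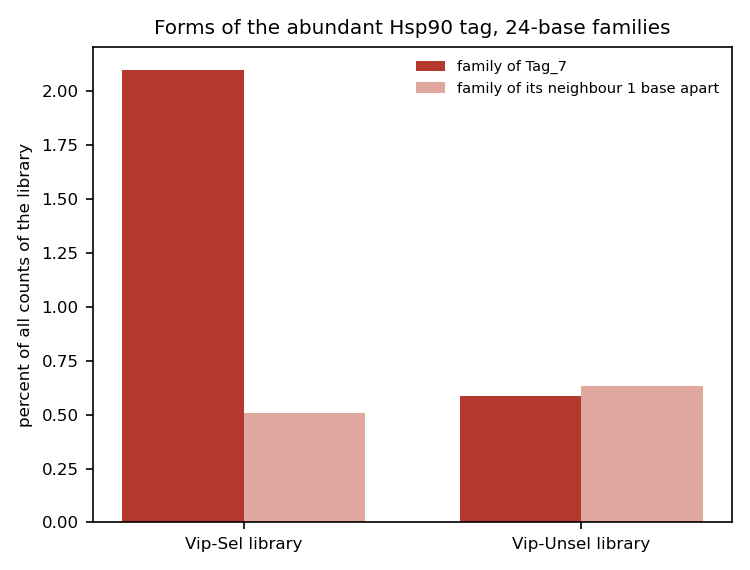
Share of all counts of the library (vertical axis, percent) taken by tags with the first 24 bases of Tag_7 of Hsp90 cognate (dark bars) and by tags with those of its neighbour 1 base apart (light bars), in the Vip-Sel and the Vip-Unsel library. The dark bar is taller in Vip-Sel, where it holds 80.5% of the counts of both families, and the bars are close to each other in Vip-Unsel, where it holds 48.1%; there is 1 library per strain and no error bar.

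Tag_80 of heat shock cognate 70, the constitutive form of Hsp70, had 1046 counts in Vip-Sel versus 29 in Vip-Unsel (FC 9.16, 6.34 to 13.7). It ranked 82 in Vip-Sel and 535 in Vip-Unsel. Its variant that differs only in the last base, A26G, had 108 counts in Vip-Sel versus 7 in Vip-Unsel, with a ratio of 3.92 (1.84 to 9.98), and was called OE. The tag contains the same stretch of 11 bases in 2 copies, starting at positions 2 and 14, shown here in capitals. A repeat at least as long was found in 4 of the 5237 tags counted in both libraries (0.0764%) and in no other member, and 3 of these 4 tags are Tag_80 and variants in its last 2 bases.
Tag_80: cATGCCCGGCGGtATGCCCGGCGGca

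The remaining chaperones were rare tags called UE. Tag_2526 of a small heat shock protein had 5 counts in Vip-Sel versus 4 in Vip-Unsel (FC 0.317, 0.0683 to 1.60). With the tags of the same first 24 bases it had 11 counts in Vip-Sel versus 5 in Vip-Unsel, with a ratio of 0.559, and lost the call. Tag_3325 of chaperonin subunit 4 delta had 3 counts in Vip-Sel versus 4 in Vip-Unsel (FC 0.190, 0.0279 to 1.13). Tag_3274 of another chaperonin had 3 counts in each library, an FC of 0.254 (0.0340 to 1.90). The intervals of these 3 tags include 1, so at this depth a difference was not detectable beyond counting error. Summed with a neighbour that differs at position 22 (C22T) and had 9 counts in Vip-Sel versus 0 in Vip-Unsel, Tag_3274 had a ratio of 1.02, on the other side of 1. Both chaperonin tags run opposite to the contig they were matched to. In all, 4 of the 27 members did so, and 71 of the 396 entries of the lists with a readable position.

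The 7 chaperone tags together had 20061 counts in Vip-Sel (1.90%) versus 1289 in Vip-Unsel (0.481%), a ratio of 3.95 (3.74 to 4.18). Without Tag_7 the sum was 1186 in Vip-Sel and 70 in Vip-Unsel, with a ratio of 4.30 (3.38 to 5.56), which rests mainly on Tag_80. Without both Tag_7 and Tag_80, a sum chosen after seeing the data, the other 5 tags had 140 counts in Vip-Sel versus 41 in Vip-Unsel, with a ratio of 0.867 (0.608 to 1.26). The ratio of all 7 tags was 2.40 with tags 1 substitution away summed and 8.39 under TMM, which scales the libraries after leaving out the most extreme tags.

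The degradation tags began with the proteasome core. Tag_30 of proteasome subunit beta type-4, a structural subunit of the core particle, ranked 30 in Vip-Sel and 87 in Vip-Unsel. It had 4404 counts in Vip-Sel (0.417%) versus 333 in Vip-Unsel (0.124%), with FC 3.36 (3.004 to 3.77), the lowest FC of the 8 OE members. Its sister tags, which share its first 24 bases and differ in the last 2, had 319 counts in Vip-Sel versus 66 in Vip-Unsel, with a ratio of 1.23 (0.939 to 1.63), below that of Tag_30. Summed with Tag_30 they gave a ratio of 3.01, which was still OE. Tag_3631 of the same subunit name, which runs opposite to its contig, had 2 counts in Vip-Sel versus 9 in Vip-Unsel (FC 0.0564, 0.00593 to 0.273).

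Both tags of the proteasome cap, which recognises and unfolds ubiquitin-marked proteins, were UE. Tag_282 of 26S proteasome non-ATPase regulatory subunit 13, a lid subunit, had 227 counts in Vip-Sel versus 147 in Vip-Unsel (FC 0.392, 0.317 to 0.486), just inside the UE threshold. It was the most abundant UE member, and its call depended on what was counted with it. The following neighbour, C16T, had 56 counts in Vip-Sel versus 22 in Vip-Unsel, with a ratio of 0.646 (0.388 to 1.11).
Tag_282: catgaaggcgctggcCgagaagctca
neighbour of Tag_282: catgaaggcgctggcTgagaagctca
All tags at most 1 substitution away summed to a ratio of 0.445, and those of the same first 24 bases to 0.422, both outside the threshold. Tag_1925 of 26S protease regulatory subunit 7-like, an ATPase of the base of the cap, had 10 counts in Vip-Sel versus 13 in Vip-Unsel (FC 0.195, 0.0767 to 0.482). Together the cap tags had 237 counts in Vip-Sel versus 160 in Vip-Unsel, with a ratio of 0.376 (0.306 to 0.463). The core tags had 4406 and 342 counts in Vip-Sel and Vip-Unsel, a ratio of 3.27 (2.93 to 3.66). Of these core counts Tag_30 held 4404 and 333, and the other core tag, Tag_3631, was UE. With library sizes scaled by TMM neither cap tag was called, at an FC of 0.832 for Tag_282 and 0.414 for Tag_1925.

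The ubiquitin enzymes were mostly rare tags, 8 of 9 UE, beside 78.9% of all called tags counted in both libraries. No tag counted in both libraries with at most 20 counts was OE. With TMM, 5 of the 9 remained UE, since Tag_1640, Tag_3118 and Tag_3954 lost the call. The OE tag was Tag_1248 of the E2 enzyme ubiquitin-conjugating enzyme E2-24 kDa, with 22 counts in Vip-Sel versus 1 in Vip-Unsel (FC 5.59, 0.903 to 231). Tags with the same first 24 bases summed to 27 counts in Vip-Sel versus 5 in Vip-Unsel, with a ratio of 1.37, so that call rested on the exact 26 bases. Its entry was also the least certain in being matched to a deposited tag.

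Ubiquitin ligases choose which proteins are marked. Tag_1134 of an Mdm2-like E3 ligase, whose mammalian relative marks p53, was the most abundant of them, with 26 counts in Vip-Sel versus 92 in Vip-Unsel (FC 0.0718, 0.0446 to 0.112). Its variant in the last base, A26G, had 5 counts in Vip-Sel versus 30 in Vip-Unsel, with a ratio of 0.0423 (0.0128 to 0.110), and was called UE. As an end variant it is no separate support. Tag_2860 of the E3 ligase MYLIP, which in mammals marks lipoprotein receptors, had 4 counts in Vip-Sel versus 11 in Vip-Unsel (FC 0.0923, 0.0214 to 0.312). Tag_2466 of the E3 ligase TRIM33, which acts on Smad signalling in mammals, had 6 counts in Vip-Sel versus 10 in Vip-Unsel (FC 0.152, 0.0455 to 0.463). These 3 tags were called UE in the same direction with intervals below 1.

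Tag_2211 of the kelch-like protein diablo, an adaptor of cullin ligases, had 7 counts in Vip-Sel versus 10 in Vip-Unsel (FC 0.178, 0.0574 to 0.517). Tag_3118 of sina, a RING ligase known from the Drosophila eye, had 3 counts in Vip-Sel versus 4 in Vip-Unsel (FC 0.190, 0.0279 to 1.13). Tag_3954 of an E3 ligase of the RNF type had 2 counts in Vip-Sel versus 3 in Vip-Unsel (FC 0.169, 0.0141 to 1.48). The intervals of both reached above 1. Tag_1640 of ring box protein, the RING subunit of cullin ligases, had 14 counts in Vip-Sel versus 9 in Vip-Unsel (FC 0.395, 0.159 to 1.03). With its family of the same first 24 bases it had 25 counts in Vip-Sel versus 10 in Vip-Unsel, with a ratio of 0.635, and was no longer called. Tag_3397 of ubiquitin carboxyl-terminal hydrolase 10, which removes ubiquitin, had 3 counts in Vip-Sel versus 6 in Vip-Unsel (FC 0.127, 0.0205 to 0.595). All 9 ubiquitin enzymes together had 87 counts in Vip-Sel versus 146 in Vip-Unsel, with a ratio of 0.151 (0.115 to 0.199), and without Tag_1134 a ratio of 0.287 (0.196 to 0.422).

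The last degradation tags belong to quality control of membranes and mitochondria. Sel-1 is a partner of the ligase that clears misfolded proteins from the endoplasmic reticulum. Tag_238 of a sel-1 homolog, in the orientation opposite to its contig, had 272 counts in Vip-Sel versus 19 in Vip-Unsel (FC 3.64, 2.28 to 6.13). One variant in its next to last base, G25C, had 246 counts in Vip-Sel versus 0 in Vip-Unsel, where a count of 0 allows up to 3 counts. Against 3 counts it was at least 20.8-fold higher in Vip-Sel, and the exact interval of its ratio begins at 16.8.
Tag_238: catgcacgagcgagggctcggcctGg
variant of Tag_238: catgcacgagcgagggctcggcctCg
The variant held nearly as many counts as Tag_238 in Vip-Sel, and the family of both had 606 counts in Vip-Sel versus 34 in Vip-Unsel, with a ratio of 4.53. Tag_2610 of sel-1 homolog 1 had 5 counts in Vip-Sel versus 6 in Vip-Unsel (FC 0.212, 0.0511 to 0.832), the other way. Tag_548 of a mitochondrial clpX-like subunit, the ATPase that unfolds substrates of the Clp protease of the matrix, had 96 counts in Vip-Sel versus 2 in Vip-Unsel (FC 12.2, 3.28 to 102).

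The 16 degradation tags together had 5103 counts in Vip-Sel (0.483%) versus 675 in Vip-Unsel (0.252%), a ratio of 1.92 (1.77 to 2.08). This sum turned on Tag_30 alone. Without it the other 15 tags had 699 counts in Vip-Sel versus 342 in Vip-Unsel, with a ratio of 0.519 (0.455 to 0.592).

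The class also contained 4 tags whose names do not say folding or degradation. Tag_326 of a presenilin homolog, the catalytic subunit of gamma-secretase, a protease that cuts proteins within the membrane, had the highest FC of all members, 23.997 (6.55 to 199.6), from 189 counts in Vip-Sel versus 2 in Vip-Unsel. Tag_4006 of a LIX1-like protein had 2 counts in Vip-Sel versus 7 in Vip-Unsel (FC 0.0726, 0.00735 to 0.381). Tag_4803 of gamma-glutamyltranspeptidase 1, an enzyme of glutathione turnover, had 1 count in Vip-Sel versus 4 in Vip-Unsel (FC 0.0635, 0.00129 to 0.642). Tag_3942 of cytochrome c oxidase polypeptide IV, a subunit of the respiratory chain, had 2 counts in Vip-Sel versus 5 in Vip-Unsel (FC 0.102, 0.00967 to 0.6204), but it was a minor variant of a more abundant tag.
Tag_3942: catgctggacctcaagatgaacccCg
neighbour of Tag_3942: catgctggacctcaagatgaacccTg
This neighbour, C25T, had 60 counts in Vip-Sel versus 84 in Vip-Unsel, with a ratio of 0.181 (0.128 to 0.256), and was called UE.

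**Figure D3:**
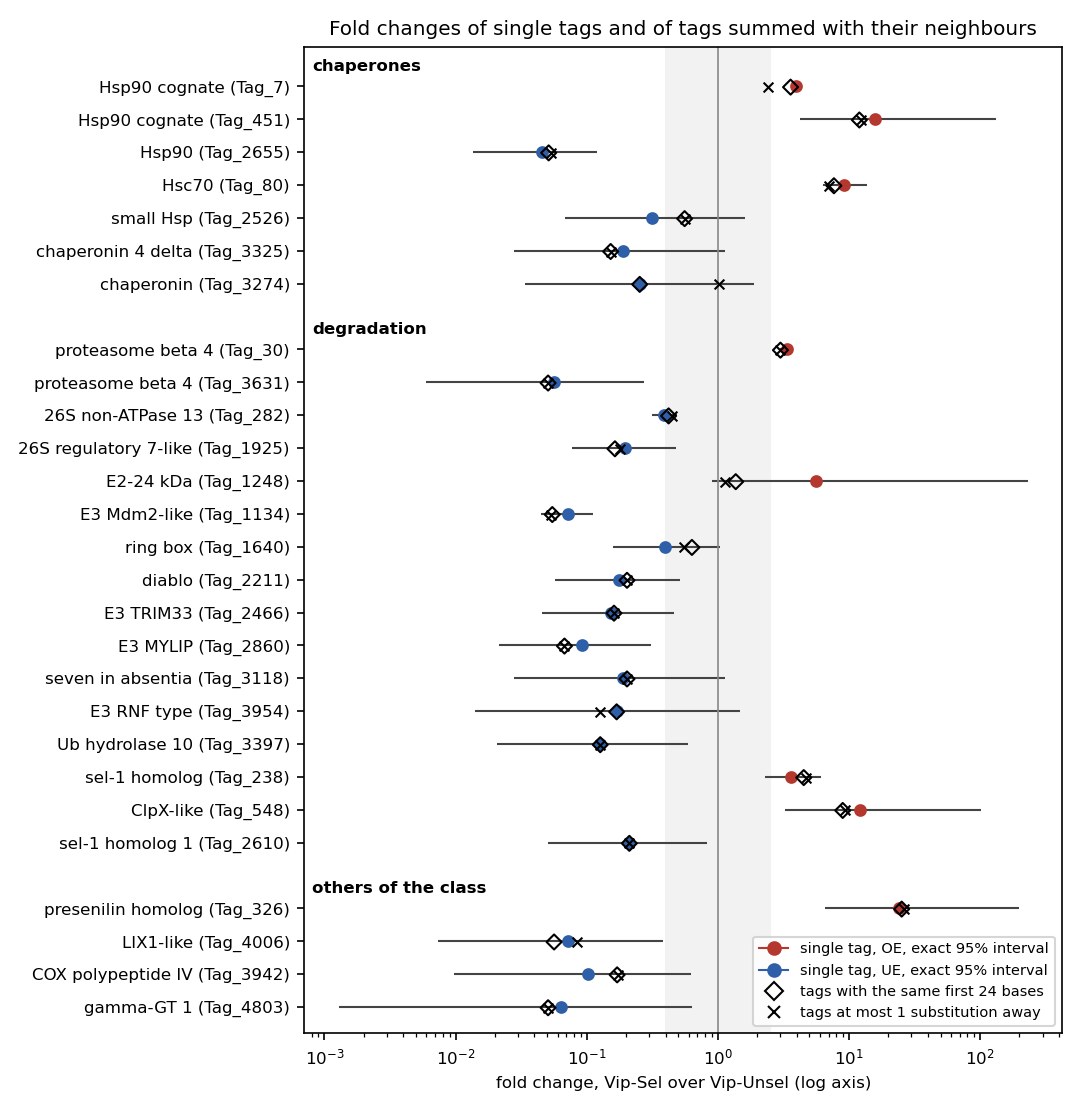
FC of each of the 27 tags (horizontal log axis, Vip-Sel over Vip-Unsel) with its exact 95% interval (points and lines, red OE, blue UE), and the same ratio for the sum of tags with the same first 24 bases (diamonds) and of tags at most 1 substitution away (crosses). The grey band marks ratios between 0.4 and 2.5; the crosses of Tag_7 (2.40), Tag_2526 (0.559), Tag_3274 (1.02), Tag_282 (0.445), Tag_1248 (1.14) and Tag_1640 (0.554) lie inside it, and 7 of the 27 intervals include 1.

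The members differed in what carried their call. The 8 OE tags had 23 to 20094 counts in both libraries together, with a median of 241, and the 19 UE tags 5 to 374, with a median of 11. For all tags counted in both libraries the medians were 93 for OE and 10 for UE tags. At most 20 counts lay behind 14 of the 19 UE members, and 71.6% of all UE tags counted in both libraries. Of all OE tags counted in both libraries, 0% had so few counts. Among tags counted in both libraries, a tag this rare was called UE or not at all, so the rarity of UE members is not particular to them. The interval included 1 for 1 of the 8 OE members, Tag_1248, and for 6 of the 19 UE members. The median log2 FC was 2.84 for the OE members and -2.56 for the UE members, beside -1.08 for all tags counted in both libraries and -0.98 for all tested tags. Nearest to the threshold from inside were Tag_1640 (0.395) and Tag_282 (0.392) on the UE side and Tag_30 (3.36) on the OE side; the nearest tags outside it with a probability under 0.05 had an FC of 0.4004 and 2.48.

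**Figure D4:**
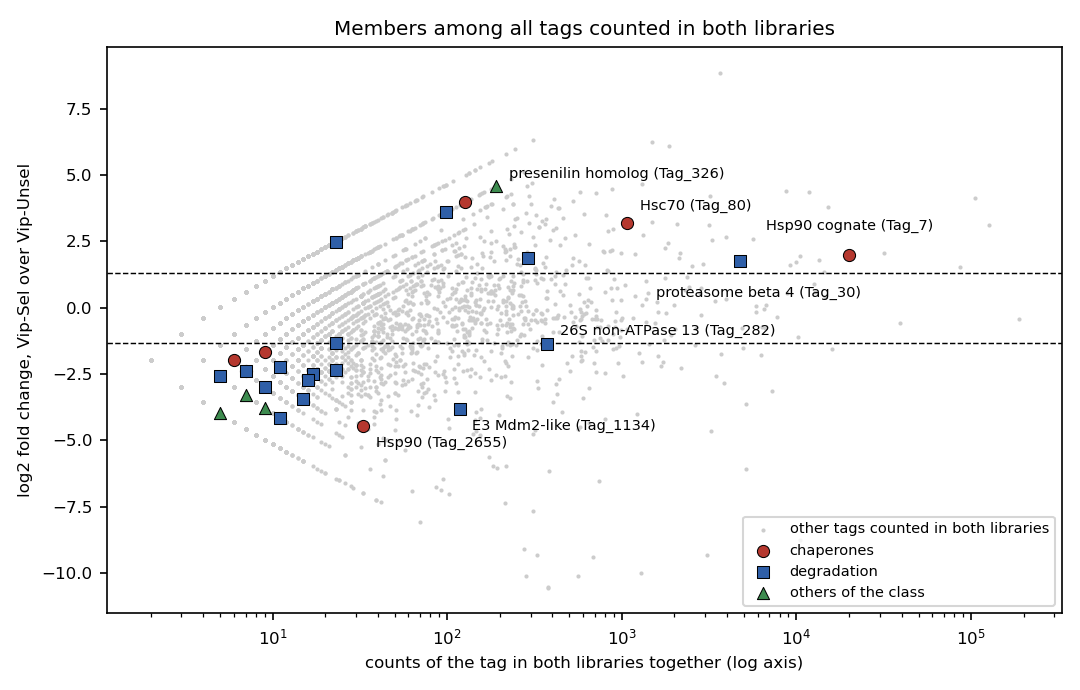
Log2 FC (vertical axis, Vip-Sel over Vip-Unsel) against the counts of both libraries together (horizontal log axis) for all 5237 tags counted in both libraries (grey) and for the 27 members, with dashed lines at FC 2.5 and 0.4. The OE members lie at 23 counts or more and include the abundant tags, and most UE members lie at the low end of the counts. Among all tags shown, none with at most 20 counts was OE.

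A feature that the choice did not use was base composition. The OE members contained 69.2% to 80.8% G and C, with a median of 76.9%, and the UE members 30.8% to 76.9%, with a median of 65.4%. All tags counted in both libraries had medians of 69.2% among OE and 61.5% among UE tags, so the members stood above both. For the other listed entries matched to a contig the medians were 61.5% among OE and 57.7% among UE tags. The part of base composition in the calls was not tested.

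The scale of the libraries bears on every value. TMM moved all FC values up by 1.09 on the log2 scale. All 8 OE calls then remained, 10 of the 19 UE calls remained, and the shares of the tags counted in both libraries became 18.0% OE and 12.2% UE. Tag_1640 had an FC of 0.838 on that scale. The samples were labelled midgut tissue. The 24 linked tags named as trypsins, chymotrypsins or aminopeptidases took 9.84% of the Vip-Sel library and 3.60% of the Vip-Unsel library. Of them, 14 were OE and 10 UE. Most of the counts of these tags, in both libraries, came from the most abundant chymotrypsin tag. The abundant trypsin-like Tag_5, OE in the paper, is missing because its entry could not be linked to a deposited tag. The shares of all tags with these names are therefore higher in both libraries. The 5 tags named for muscle proteins, all UE, held 0.0337% and 0.144% of the counts in Vip-Sel and Vip-Unsel. Every tag of both lists was chosen through its call. Whether the guts differed in cell types was not tested, and fewer cells of a type and less RNA per cell cannot be told apart in such pools.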

How the data were processed

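The authors discarded reads that were incomplete or of low quality, and tags of a length other than 26 bp, and deposited the raw count of every distinct tag, 1 file for each of 2 libraries, with no alignment. Column totals were used as library sizes. FC and P followed the study: counts scaled to about the size of the smaller library, as in the study (a 0 taken as 1), thresholds of 2.5 and 0.4, and the cumulative Audic and Claverie probability under 0.05 without adjustment, over tags counted at least 2 times. With 1 library per strain a call compares libraries and not strains. Names came from the study's lists, whose text had misread letters; entries were therefore linked to deposited tags through their counts and the nearest sequence: 1872 of 1895 readable entries were linked, all members among them. By the rule, 1 ribosomal protein entry was left out. Members and lists were chosen with earlier results of these data known. Every member is named, and sequences are shown for abundant members, for members with the same name and opposite calls, and for members with a neighbour that matters to their value. Other tags of these pathways were not analysed here, since a tag without a call has no name. Intervals are exact binomial (Clopper-Pearson). Alternatives were TMM scaling, totals without the 10 most abundant tags of either library, Benjamini-Hochberg adjustment, Fisher's exact test, fold thresholds of 4 and 0.25, sums of similar tags, centring on G and C content and a minimum of 10 counts. Python 3.11.15, scipy 1.17.1, R 4.3.3 and edgeR 4.0.16 (for TMM only) were used.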

Additional observations from a re-analysis of the deposited data

How the results depend on the processing

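Of 9 alternatives, none gave a member the opposite call, and 4 OE tags (Tag_451, Tag_80, Tag_548 and Tag_326) and 6 UE tags (Tag_2655, Tag_3631, Tag_1134, Tag_2211, Tag_2466 and Tag_2860) had the same call under every one. The count of 8 OE members fell to 5 with fold thresholds of 4 and 0.25. The count of 19 UE members fell to 10 with TMM, to 11 with centring on the median of tags of the same G and C content and to 10 with a minimum of 10 counts, which leaves 9 members untested. The medians used for centring lay between -0.98 and -0.82 on the log2 scale, beside -0.98 for all tested tags, so this setting moved all members up by nearly the same amount, whatever their G and C content. Under the other settings 6 to 8 OE and 15 to 16 UE calls remained. With tags 1 substitution away summed, Tag_3274 had a log2 ratio of 0.0225, on the other side of 0. The ratio for the chaperones was 8.39 with TMM, 4.79 without the 10 most abundant tags, 4.30 without Tag_7, 0.867 without Tag_7 and Tag_80 (chosen after seeing the data), 3.48 with the same first 24 bases summed and 2.40 with tags 1 substitution away summed. The ratio for degradation was 4.07 with TMM, 2.33 without the 10 most abundant tags, 0.519 without Tag_30 and 1.73 with tags 1 substitution away summed. After Benjamini-Hochberg adjustment over all tested tags, or by Fisher's exact test, 7 OE and 16 UE calls remained. No paired analysis was possible because each strain has 1 library. Counts as low as 1 in Vip-Unsel limit what can be said of Tag_1248, and with no replicate library the spread within a strain is unknown.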
